A study of Mus musculus with 3 samples.

Results

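The cytosolic ribosomal proteins were followed through a differentiation of mouse embryonic stem (ES) cells towards liver. A name was a member when it was Rpl or Rps followed by a digit, or Rplp0, Rplp1, Rplp2 or Rpsa, and the Rps6k kinases were left out. This gave 84 names of 28090 on the array and 145 probes of 41174. Of these names, 77 are parent ribosomal proteins (46 of the large and 31 of the small subunit) and 6 are paralogues, second gene copies named after a parent (Rpl39l, Rpl22l1, Rpl3l, Rpl7l1, Rps27l and Rpl36al). The remaining name, Rps19bp1, belongs to a protein that binds Rps19 and is not a subunit. All 84 names were well above background on at least 1 array and entered the comparisons, and 82 were so on all 3 arrays.

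All samples were the ES cell line E14.1. On day 0 the cells grew on gelatin in serum-free medium with N2, B27, BMP4 and LIF, the factor that keeps mouse ES cells undifferentiated. By day 5, labelled definitive endoderm, BMP4 and LIF had been withdrawn and activin A given, on plates coated with collagen IV. By day 7, labelled early hepatic cells, BMP4 and basic FGF had been added to activin A for the last 2 days. Each day is 1 array of 1 culture of 1 cell line, so no difference has a replicate check and no p-value is given. The effects of added factors, surface and time in culture cannot be told apart.

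A ribosome joins a small subunit, which reads the messenger RNA, to a large subunit, which forms the peptide bonds. Each subunit holds 1 copy of most of its proteins, and cells adjust the whole set together, mainly through translation of mRNAs that begin with a run of pyrimidines. A few mammalian ribosomal proteins have paralogues with narrower expression. Rpl39l can replace Rpl39, which lines the exit tunnel of the new peptide, and is best known from male germ cells. Rpl3l takes the place of Rpl3 in striated muscle, and Rpl22l1 is held down by Rpl22 in several tissues.

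Among the 6 paralogues, Rpl39l and Rpl3l fell by over 2-fold with differentiation, and their parents differed by less than 2-fold. The stretches that follow come from the probes behind these values, with AATAAA, the letters of the commonest polyadenylation signal, in capitals. Each array probe is 60 bases long. Of the Rpl39l and Rpl39 probes and of the farther probes of Rpl22 and Rpl37, 30 bases are shown, and the remaining probes are shown whole or, for Rpl22l1, to the TAA at base 57.
Rpl39l, main probe: tcagcagttcagtAATAAAtatgtgaaacc
Rpl39l, second probe: gtgagcgatatcctggatcttgtttgtgta
Rpl39: aggatttatactgaattgtcatcaatcagt
Rpl3l: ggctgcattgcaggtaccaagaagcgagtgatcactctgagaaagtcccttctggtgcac
Rpl3: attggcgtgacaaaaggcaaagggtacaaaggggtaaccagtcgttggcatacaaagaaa
Rpl22l1: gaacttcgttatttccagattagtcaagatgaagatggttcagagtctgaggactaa
Rpl22, first probe: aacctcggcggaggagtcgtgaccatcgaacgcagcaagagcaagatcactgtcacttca
Rpl22, farther probe: gctgtaaacaacattaaccctgggttgatt
Rpl37, first probe: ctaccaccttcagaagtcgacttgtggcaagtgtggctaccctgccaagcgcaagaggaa
Rpl37, farther probe: ctaccatgcctacagtgtcttaagacgctt

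Positions are those of the mouse build mm9 in the scanner files. The main Rpl39l probe lies at chr16:10174657-10174716 on the plus strand and the second at chr16:10174765-10174824, downstream of the AATAAA letters. The Rpl39 probe lies at chrX:34622643-34622702 on the minus strand. The Rpl3l probe was placed at chr17:24872413-24872681 (plus) and the Rpl3 probe at chr15:79910252-79910826 (minus). These 60 bases cover 269 and 575 bases of genome, so both probes cross an intron. The Rpl22l1 probe lies at chr3:28706197-28706256. No probe of a paralogue shared a run of more than 8 identical bases with a probe of its parent on either strand. The parents' whole transcripts were not searched, so binding of a paralogue's probe to its parent's RNA was not tested. AATAAA stood in 19 of the 145 ribosomal protein probes (13.1%) and in 4.78% of all gene probes.

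Rpl39l had the largest difference of all members. Its normalised signal, the log2 processed signal minus the array's 75th percentile, read 2.66 (day 0), -3.94 (day 5) and -9.12 (day 7), the last not well above background. It was thus lower on each later array. The difference from day 0 to day 5 was -6.59 (96.5-fold lower). On day 7 Rpl39l was at least 828-fold lower than on day 0 and at least 8.59-fold lower than on day 5, against the lowest signal well above background on that array. These bounds, -9.69 and -3.10 in log2, hold for this background correction, scaling and choice of probe only. Normexp gave -7.23 and -1.25, quantile normalisation -9.48 and -2.88, and the median over probes -9.24 and -2.73. With dim values kept as read the differences were -11.78 and -5.19. In total RNA from a whole culture, fewer cells with the transcript and less of it per cell cannot be told apart.

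The second Rpl39l probe read -2.38 on day 0 and was dim, that is not well above background, on both later arrays. Its log2 differences against day 0, as bounds, were -4.38 on day 5 and -4.66 on day 7, so both probes carried the direction. Rpl39 stayed within 1.5-fold throughout, at 6.76, 6.89 and 6.36 on days 0, 5 and 7. Its differences were 0.13 and -0.39 against day 0 and -0.52 between days 5 and 7. Rpl39l minus Rpl39 was therefore -6.72 on the log2 scale from day 0 to day 5.

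Rpl3l, the muscle paralogue, read -3.10 (day 0), -6.21 (day 5) and -7.72 (day 7), the last value dim. It was lower on each later array, as Rpl39l was. It was 8.65-fold lower on day 5 and at least 15.3-fold lower on day 7 than on day 0. The step from day 5 to day 7, at least 1.77-fold, was under the 2-fold limit. Rpl3, which helps to form the peptidyl transferase centre, was at 7.79, 7.40 and 6.99. Its difference from day 0 to day 7, -0.80, was the lowest of all parents but still under 2-fold. The size of the Rpl3l fall depended on the background correction and the offset added with it, since normexp gave -1.63 in place of -3.11 from day 0 to day 5.

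Cell type markers moved on the same arrays. All 6 ES cell markers were at least 2-fold lower on days 5 and 7. Among 6 germ line markers, 4 were at least 2-fold lower on day 5, the same number on day 7, and none was higher. Mael, a germ cell gene of transposon silencing, went from 1.86 to -3.49 and -6.62 on the normalised scale, and Ddx4, the Vasa helicase, from 0.62 to -3.23 and -4.55. Of 6 striated muscle markers, 1 was 2-fold higher and 2 lower on day 5, and 1 higher and 3 lower on day 7. Over all names 16.5% were higher and 16.1% lower on day 5, and 16.2% and 19.1% on day 7. Their part in the falls of Rpl39l and Rpl3l was not tested.

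The other 4 paralogues stayed under 2-fold in every comparison by the probes that stand for them. Rpl22l1 was at 5.59 on day 0, 5.79 on day 5 and 5.40 on day 7, and its parent Rpl22 at 7.22, 6.77 and 6.44. By these probes Rpl22l1 was 0.64 above its parent's difference on day 5 and 0.59 on day 7. This order rested on the choice of probes. The second Rpl22l1 probe differed by -0.57 on day 5 and -0.88 on day 7, and the farther Rpl22 probe, at chr4:151708012-151708071, by 1.39 and 0.63. With the median over all probes of a name, Rpl22 stood at 0.47 on day 5 and Rpl22l1 at -0.19, so that the order turned.

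Rpl36al, a copy of Rpl36a, went from 5.55 on day 0 to 4.88 and 4.70. Rpl36a was at 7.01, 7.02 and 6.61. The copy was thus 1.59-fold lower on day 5, where its parent differed by 0.01 on the log2 scale. Rpl7l1 went from 3.74 to 3.17 and 2.97, and Rpl7 from 7.84 to 7.53 and 7.35. A second Rpl7l1 probe passed 2-fold, with differences of -1.17 and -1.29 against day 0. In both pairs the paralogue's difference against day 0 was the lower, by less than 2-fold. Rps27l, a target of p53, differed from day 0 by -0.20 and -0.34, and Rps27 by -0.17 and -0.41. Rps19bp1, also known as a regulator of the deacetylase Sirt1, went from 4.20 to 3.31 and 3.28 and was 1.86-fold lower on day 5 and 1.90-fold lower on day 7.

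**Figure D1:**
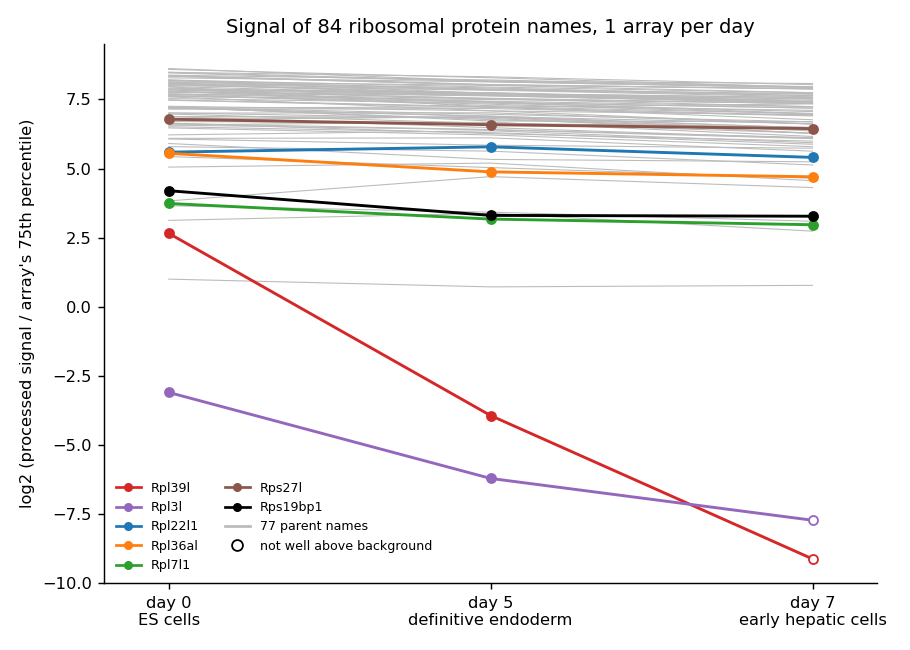
Normalised log2 signal (vertical axis) of the probe standing for each of 84 ribosomal protein names on the single array of each day, with 77 parents in grey. Open points mark values not well above background; Rpl39l drops from 2.66 to -3.94 and -9.12 and Rpl3l from -3.10 to -6.21 and -7.72, while no other coloured line changes by 2-fold.

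The 77 parents moved as a narrow band. From day 0 to day 5 their median difference was -0.23 with an SD of 0.22 across names, from day 0 to day 7 it was -0.49 with an SD of 0.17, and from day 5 to day 7 it was -0.27 with an SD of 0.15. Over all 21256 names compared the medians were -0.11, -0.19 and -0.06 and the SDs 1.45, 1.58 and 0.89. No parent was 2-fold apart in any comparison. Many other probes are bright too, and 1351 other names were likewise read from the scanner's lower-gain pass on all arrays. Those had SDs of 0.56, 0.63 and 0.29 and medians of -0.32, -0.45 and -0.09.

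Counts over all 84 names, paralogues included, give the same picture. On day 5 no member was at least 2-fold higher than on day 0 (16.5% of all names were) and 2 were at least 2-fold lower (16.1%). On day 7 none was higher (16.2%) and 2 were lower (19.1%). Between days 5 and 7 none was higher (5.99%) and 1 was lower (8.44%). The names called were Rpl39l and Rpl3l against day 0, and Rpl39l alone between days 5 and 7.

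A looser limit of 1.5-fold separated the days further. On day 5 it took 1 member as higher (24.0% of all names) and 5 as lower (27.7%). On day 7 it took none as higher than day 0 (23.8%) and 24 of 84 as lower (32.9%), which is near the share over all names. Between days 5 and 7 none was higher (10.7%) and 5 were lower (16.2%). The small differences of the parents mostly had 1 sign: 66 of 77 were below 0 on day 5 and 76 on day 7. Of all 21256 names, 11697 were below 0 on day 5 and 12179 on day 7. Of the 1351 other names read from the lower-gain scan, 1063 and 1080 were. The order of days 0, 5 and 7 from high to low held for 64 parents, and day 7 was the lowest of the 3 in 74. Neither of these orders was counted over all names.

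Both subunits behaved alike on this scale. The 46 large subunit names had medians of -0.23, -0.47 and -0.27 in the 3 comparisons, and the 31 small subunit names -0.25, -0.50 and -0.25. The small subunit had the narrower spread, with an SD of 0.10 across names on day 7 against day 0, where the large subunit had 0.21. Fau, a small subunit protein made as a fusion, and Gnb2l1, the scaffold protein Rack1 of the small subunit, escape the name rule and lay in the same band. Fau differed by -0.27, -0.32 and -0.05 in the 3 comparisons, and Gnb2l1 by -0.20, -0.38 and -0.18.

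**Figure D2:**
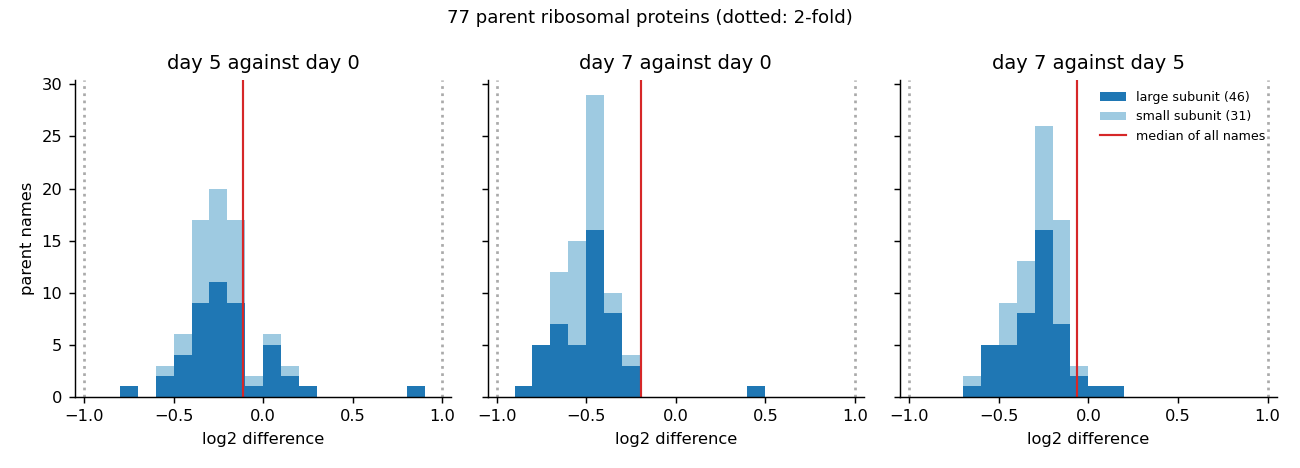
Histograms of the log2 difference (horizontal axis, bins of 0.1) of the 77 parent names in each comparison, large subunit in dark and small subunit in light blue. All bars lie inside the dotted 2-fold limits, most to the left of the red median of all names; the lone bar on the right in the first and second panels is Rpl27a at 0.88 and 0.48.

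Single names at the edges of the band differed by less than 2-fold by the probes that stand for them. On day 5 the lowest parents were Rpl26, a large subunit protein that also binds p53 mRNA, and Rpl24. Rpl26 went from 7.96 on day 0 to 7.21 on day 5 and 7.34 on day 7, and was the parent with the highest difference between days 5 and 7, at 0.13. Rpl24 was at 5.91, 5.33 and 5.24. The highest on day 5 were Rpl27a, Rpl14 and Rpl10a. Rpl27a was at 3.83, 4.71 and 4.31, which is 1.84-fold higher on day 5 and 1.40-fold higher on day 7, and it was the only parent above 0 on day 7. Rpl14 was at 3.13, 3.38 and 2.74 and Rpl10a at 6.22, 6.37 and 5.93.

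On day 7 the lowest parents against day 0 were Rpl3 and Rpl37, a zinc-binding protein of the large subunit, with differences of -0.80 and -0.79. Rpl21 was among the highest, at -0.22, with levels of 1.00, 0.72 and 0.78 by a clone-derived probe. Its dimmer RefSeq probe differed from day 0 by 0.53 on day 5 and -0.10 on day 7. Between days 5 and 7 the lowest names measured on all arrays were Rpl14 (-0.65), Rps15 (-0.64), Rpl35a (-0.59) and Rpl28 (-0.54). Rps15 was at 5.05, 5.20 and 4.56, Rpl35a at 6.81, 6.86 and 6.27, and Rpl28 at 7.01, 6.82 and 6.28. Day 7 was thus the low array for these 4, and the first 3 were slightly higher on day 5 than on day 0. Rpl18 was at 7.23, 6.72 and 6.69, so that it was lower on both later days by nearly the same amount.

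Rplp0, the stalk base of the large subunit, was printed as 10 spots on each array and gives a technical error. The spots averaged 5.79 ± 0.081 (SD, n = 10 spots), 5.63 ± 0.058 and 5.13 ± 0.072 in day order. The ranges of the 10 spots did not overlap between day 7 (5.01 to 5.20) and the other days, and overlapped between day 0 (5.68 to 5.92) and day 5 (5.57 to 5.73). This spread covers the slide and not the culture or the labelling.

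The direction of the band depended on how arrays were scaled. Before scaling, 65 of 77 parents had a higher processed signal on day 5 than on day 0, and 11 had a higher one on day 7 than on day 0. The 75th percentile itself stood at 1564, 2051 and 2053 intensity units in day order. Relative to the median of all names the members stood at -0.13, -0.30 and -0.20. Quantile normalisation put the members' median at 0.06 on day 5 and -0.10 on day 7, which is 0.14 above and 0.01 below all names. The authors' deposited log2 values gave 0.03 and -0.09. The small difference on day 5 therefore has no settled direction, and only between days 5 and 7 did the members lie below all names under every scaling tried. The spread across parents changed little, with SDs of 0.21 on day 5 and 0.16 on day 7 after quantile normalisation.

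The brightness of the members bears on these values. Of their 154 spots per array, between 119 and 123 were read from the lower-gain scan, against 5.08% to 5.83% of all gene spots. None was saturated. On the day 5 array Rps2, an entry-channel protein of the small subunit, reached 655387 intensity units, 99.9% of the saturation value. The 40 parents at 50% or more of that value on any array had median differences of -0.26, -0.47 and -0.21, and the 37 dimmer ones -0.22, -0.53 and -0.38. Parents far from saturation thus differed between days 5 and 7 by more than the brightest ones did.

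**Figure D3:**
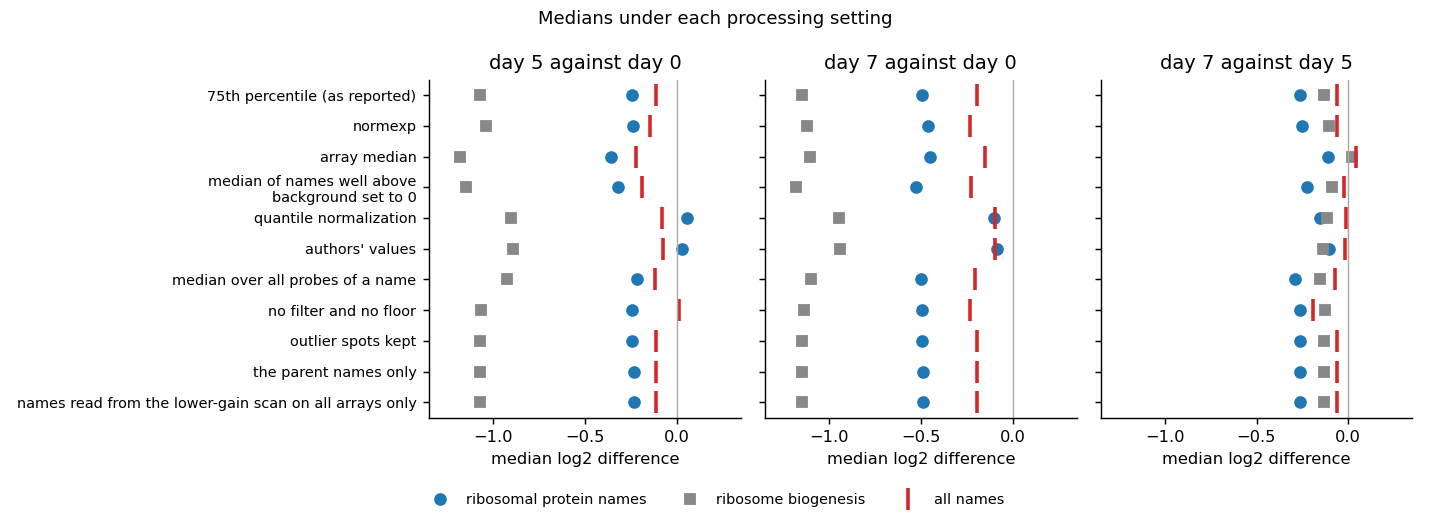
Median log2 difference (horizontal axis) of the ribosomal protein names (blue), of the ribosome biogenesis list (grey squares) and of all names (red bars) under each processing setting (rows). The blue points cross 0 on day 5 under quantile normalisation and with the authors' values (0.06 and 0.03), while the grey squares stay to their left in both comparisons with day 0 (-1.07 and -1.15 as reported).

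Several names had probes that did not move together. Among 44 names with several probes well above background on all arrays, the median gap between a name's highest and lowest probe was 0.28 on day 5 and 0.27 on day 7 against day 0. The gap was over 1 for 5 names on day 5 and 4 on day 7, and for none between days 5 and 7. These were Rpl22, Rpl27a, Rpl37, Rps12, Rps20 and Rps24, 6 names in all. Of 42 members with several probes at 1 locus, 11.9% had such a gap on day 5 and 9.52% on day 7. Of 5864 other names 19.9% and 18.3% had it, with median gaps of 0.39 and 0.35. Between days 5 and 7, 3.91% of the other names had it. In Rpl37 the first probe, at chr15:5067361-5067420, read 6.88, 6.48 and 6.09, and the farther one, 1574 bases downstream, -3.92, -2.86 and -3.52. The first differed by -0.40 on day 5 and the farther one by 1.06.

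Rps20 and Rpl27a, a head protein of the small subunit and a large subunit protein, gave the same arrangement. The Rps20 probe that stands for the gene differed by -0.32 on day 5 and a clone-derived probe 2862 bases downstream by 1.1. The Rpl27a probe from its RefSeq transcript, with the 0.88 given above, lay 2085 bases downstream of a clone-derived probe with -1.08. In Rps24 the first probe differed by -0.24, a clone-derived probe 3347 bases on by -1.02, and the last, 4667 bases from the first, by 0.03. In Rps12 a clone-derived probe differed by -1.61 on day 7, and the probe 1027 bases downstream of it by -0.57. The clone-derived probes had much lower signal. On day 0 they read -1.75 in Rps20, -0.38 in Rpl27a, 3.73 and 0.11 in Rps24 and 0.61 in Rps12. The probes that stand for these names read 8.34, 3.83, 7.79 and 8.20 in the same order. In the comparisons where a name's gap was over 1, the highest probe lay downstream of the lowest in 5 of 5 names on day 5 and 4 of 4 on day 7. Rpl22, Rpl27a and Rpl37 are in both counts, and other names with a gap over 1 were not counted this way.

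The same order held for most names with several probes at 1 locus. On day 5 against day 0 the probe with the highest difference lay downstream of the lowest in 34 of 42 members (81.0%) and in 68.8% of 5864 other names. On day 7 against day 0, which shares the day 0 array, it was again 34 of 42 (81.0%), and 67.2% of other names. Between days 5 and 7 the order turned, with 12 of 42 members (28.6%) and 44.4% of other names. The genomic order of a name's probes along its strand thus went with the difference between arrays across the whole platform. Its part in the members' differences was not tested, and positions within the transcripts were not read. This pattern was looked for after the 6 names had been seen.

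**Figure D4:**
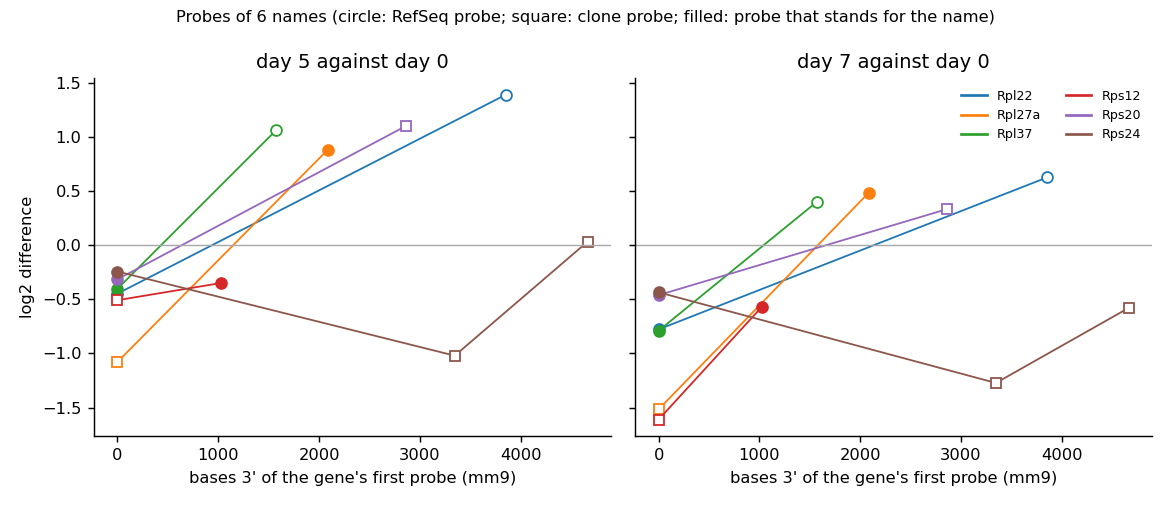
Log2 difference (vertical axis) of each probe of 6 names against its distance in bases downstream of the name's first probe (horizontal axis, mm9), for day 5 and day 7 against day 0. Circles are RefSeq probes, squares clone-derived probes and filled points the probe standing for the name; Rpl22 runs from -0.45 to 1.39 over 3854 bases on day 5, and every line ends above its lowest point.

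Clone-derived probes were the more scattered kind. The 116 RefSeq probes well above background on all arrays had SDs of 0.33, 0.25 and 0.16 in the 3 comparisons, and the 23 such clone-derived probes 0.54, 0.44 and 0.34. On day 5 against day 0, 2 of these RefSeq probes were at least 2-fold higher and 1 lower. Of these clone-derived probes 1 was higher and 5 were lower, among them probes of Rpl9 (-1.03), Rps13 (-1.09) and Rps28 (-1.07). On day 7 against day 0 none was higher, and 1 RefSeq probe and 5 clone-derived probes were lower. For Rps19, Rps2 and Rps6, 1 clone-derived probe each was dim on every array, while the probe that stands for each of these names was well above background on all 3. For 30 of the 84 names the probe also listed predicted transcripts. Ribosomal protein genes have many processed pseudogenes, and signal from near-identical copies cannot be told apart from the gene's own.

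The promoters were searched for 3 sets of letters that the name rule had not used. RefSeq promoter sequences (GRCm38.p6, 250 bases before to 50 after the start) were found for 57 parents and all 6 paralogues. The ETS-type letters CCGGAAG, searched on both strands, stood in 25 of 67 parent promoters (37.3%) and 8.86% of all 32851. The YY1-type letters AANATGGC stood in 15 (22.4%) and 6.05%, and TATAAA in 6 (8.96%) and 13.6%. Of 8 promoters of the paralogues, 2 held the ETS-type letters, 2 the YY1-type letters and 1 TATAAA. None of the 3 sets of letters contains another. The 100 bases before the start of Rpl39l, its parent and Rpl22l1 are shown because these are a paralogue that fell, a parent that stayed under 2-fold and a paralogue that stayed in the band, with matches in capitals.
Rpl39l, chr16:10170128-10170227 (plus): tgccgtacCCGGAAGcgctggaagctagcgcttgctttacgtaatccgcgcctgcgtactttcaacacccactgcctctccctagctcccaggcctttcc
Rpl39, chrX:37085223-37085322 (minus): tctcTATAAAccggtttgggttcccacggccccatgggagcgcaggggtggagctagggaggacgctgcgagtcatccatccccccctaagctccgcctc
Rpl22l1, chr3:28805408-28805507 (plus): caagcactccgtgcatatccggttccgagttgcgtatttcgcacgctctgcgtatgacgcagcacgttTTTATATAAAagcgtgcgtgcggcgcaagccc

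Rpl39l held 2 ETS-type matches before its start, 1 of them in the stretch shown. Rpl39 held 1, after its start. Rpl22l1 held 2 overlapping TATAAA matches, 1 on each strand, just before its start. These matches are letters in a window, and no binding was measured.

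Ribosome assembly factors moved further than the ribosomal proteins. Of 64 compared, 34 were at least 2-fold lower on day 5 than on day 0 and 40 on day 7, none was higher, and the medians were -1.07 and -1.15. Of all names, 16.1% and 19.1% were lower by that limit. Dkc1, the pseudouridine synthase of box H/ACA particles, went from 2.35 to 0.46 and 0.01. Noc3l, a nucleolar factor, went from 1.61 to -0.38 and -0.61, and Heatr1, a factor of pre-rRNA transcription and processing, from 4.28 to 2.42 and 2.10. The list's median minus the members' was -0.83 on day 5 and -0.65 on day 7. Across all settings tried this gap ran from -0.96 to -0.71 on day 5 and from -0.86 to -0.60 on day 7. Between days 5 and 7 none of the 64 was called and the median was -0.13.

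The 74 mitochondrial ribosomal proteins, which build the separate ribosome of mitochondria, had medians of -0.52 and -0.53 against day 0. On day 5, 7 were 2-fold lower and on day 7, 8 were, with none higher, where 16.1% and 19.1% of all names were lower. Mrps5 went from 3.51 to 2.07 and 1.67, and Mrps18b from 0.58 to -1.03 and -0.84. Unlike the cytosolic set they had a median near 0 between days 5 and 7, at -0.04. Of 52 translation factors, 2 were 2-fold higher and 5 lower on day 5, and none higher and 6 lower on day 7, with medians of -0.42 and -0.57. Of all names 16.5% were higher and 16.1% lower on day 5, and 16.2% and 19.1% on day 7. Eif4ebp1, which restrains cap-dependent initiation, went from 6.41 to 4.92 and 4.90, and Eif4e3, a cap-binding protein, from -2.99 to -0.64 and -2.15.

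**Figure D5:**
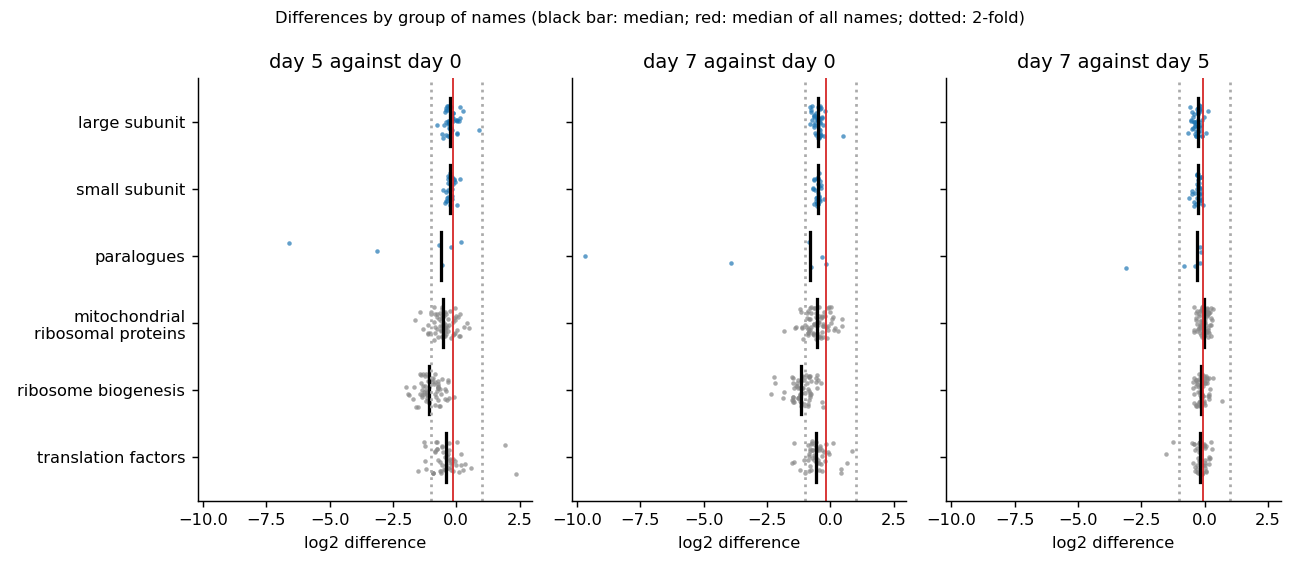
Log2 difference (horizontal axis) of every compared name in 6 groups (rows) for the 3 comparisons, with a black bar at each group's median, the median of all names in red and 2-fold limits dotted. The large and small subunit points form a narrow cluster, the paralogue row holds Rpl39l at -6.59 and Rpl3l at -3.11 on day 5, and the ribosome biogenesis row is centred at -1.07 on day 5 and -1.15 on day 7.

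The labels were set beside their markers. On day 5 all 6 definitive endoderm markers, Sox17 and Foxa2 among them, were at least 2-fold higher than on day 0. On day 7, 6 of 7 early hepatic markers were, with Afp at 3.83 on the normalised scale and -5.95 on day 0. Alb, the defining product of hepatocytes, was dim on day 0 and day 7 and read -6.07 on day 5. Markers of other lineages moved both ways on day 5. Of 5 of extraembryonic endoderm, 3 were 2-fold higher and 2 lower. Of 6 of fibroblasts and mesenchyme, 2 were higher and 2 lower, and of 5 of cardiac and lateral mesoderm, 3 were higher and 1 lower. On day 7, 5 of 5 of extraembryonic endoderm and 4 of 5 of cardiac and lateral mesoderm were higher and none lower. Of the 6 of fibroblasts and mesenchyme, 5 were higher and 1 lower. Over all names 16.5% were higher and 16.1% lower on day 5, and 16.2% and 19.1% on day 7. The cells that held the ribosomal protein RNA within these cultures were not resolved.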

How the data were processed

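RNA of 3 cultures was measured on 1 Cy3-labelled Agilent array each, all on 1 slide. Per the file headers, the authors extracted the images with Agilent Feature Extraction 10.5.1.1, and probe positions are those of mm9. The deposited files give each spot's intensity, unlogged, and the processed signal, corrected for background by that software, was used. The authors' deposited value table holds log2 values, each column with a median of 7.17. Sorted, the columns differed by up to 0.0005, so the arrays share 1 distribution.

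The log2 of the processed signal minus each array's 75th percentile was computed. Spots marked as outliers were left out (104 to 149 per array) and spots of a probe averaged. A probe was well above background when over 50% of its spots were so marked. A name was represented by the probe well above background on the most arrays, then the brightest. A dim value was raised to the lowest value well above background on its array, which gives "at least" folds. A call needed a 2-fold difference (1.5-fold as a looser limit) and the brighter value well above background. Names read on no array above background were left out of the comparisons.

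Full values were printed for paralogues with their parents, members called at 2-fold, the 4 highest and lowest differences per comparison and names whose probes differed by over 1. The values of a few names that this rule takes are not reported here. Other lists have up to 3 names each, and a few more are given as label checks. Members and lists were chosen with earlier results of these data known. The median SD between spots of 1 probe was between 0.076 and 0.080 (log2); the number of arrays limits the precision. On simulated arrays for day 5 against day 0, with 19820 names, all of 50 names given a shift of 1.5 (log2) upward were called, and none of 19620 unshifted names. These arrays were built from the day 0 array with noise of the size seen between spots (SD 0.078). They held no variation of culture or labelling, so they check the computing steps and not the rate of false calls. Python 3.11.15, pandas 2.3.3, R 4.3.3 and limma 3.58.1 (normexp with offset 50, fitted without 6 spots far below background) were used. Alternatives were normexp, the array median, the median of names above background, quantile normalisation, the deposited log2 values, the median over probes, no floor and outlier spots kept. Counts over parents only and over names of the lower-gain scan were added after the data were seen.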

Additional observations from a re-analysis of the deposited data

How the results depend on the processing

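No paired analysis was possible because each day has 1 array and the labels give no replicate numbers; for the same reason no array could be left out. Of 222 recomputed values, 145 moved by less than the spot spread or within 1.5 times a count, 77 moved by more, and none of the called values changed sign. For Rpl39l, day 5 against day 0 was -5.98 with normexp, -6.70 with the array median and -6.51 with the median over probes. Day 7 against day 0 was -7.23 with normexp, -9.48 with quantile normalisation, -9.46 with the authors' log2 values, -9.24 with the median over probes and -11.78 with no floor. Day 7 against day 5 was -1.25, -2.95 (array median), -2.88, -2.90, -2.73 and -5.19 in the same order. For Rpl3l, day 5 against day 0 was -1.63 with normexp, -3.22 with the array median, -3.21 with quantile normalisation and -3.22 with the authors' values. Day 7 against day 0 was -2.08 with normexp, -3.82 with quantile normalisation, -3.84 with the authors' values, and -4.62 with the median over probes and with no floor. Day 7 against day 5 was -0.45 with normexp, -0.67 with the array median, -0.61 and -0.62 with quantile normalisation and the authors' values, and -1.51 with the median over probes and with no floor. The members' median for day 5 against day 0 was -0.36 with the array median, 0.058 with quantile normalisation and 0.029 with the authors' values. For day 7 against day 0 it was -0.10 and -0.086 with those latter settings. For day 7 against day 5 it was -0.11 with the array median, -0.15 with quantile normalisation and -0.11 with the authors' values. Members 2-fold higher on day 5 numbered 1 with quantile normalisation and 1 with the authors' values. Members 2-fold lower on day 7 numbered 5 against day 0 and 2 against day 5 with the median over probes, and 2 against day 5 with no floor. The cause of these changes was not tested, except that removing the floor leaves dim probes at their own values. The offset of normexp also narrows folds at low signal. The low signals of Rpl39l on day 7 and of Rpl3l limit their folds.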

Other observations

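Genes that drive or follow growth were set beside the ribosomal proteins. The Myc family and its partners, which regulate many ribosomal genes, did not move as 1 group: of 11, 3 were at least 2-fold higher and 2 lower on day 5, and 2 higher and 2 lower on day 7. Of all names 16.5% were higher and 16.1% lower on day 5, and 16.2% and 19.1% on day 7. Mycn went from 5.41 on day 0 to 4.0 on day 5 and 4.97 on day 7 on the normalised log2 scale, a 2.65-fold fall on day 5. Mxd4, a partner of Max that opposes Myc, went from -3.14 to 0.57 and 0.49, a rise of 13.0-fold on day 5. Myc itself was at 1.49, 1.85 and 0.20.

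Of 20 proliferation genes, 1 was 2-fold higher and 9 were lower on day 5, and 2 were higher and 13 lower on day 7, against the same shares of all names. Ccne1, cyclin E1 of the entry into S phase, went from 5.69 to 3.35 and 3.19. Ccnd2, cyclin D2, went the other way, from -0.21 to 2.55 and 3.21, and was 10.7-fold higher on day 7. Between days 5 and 7 none of the 20 passed 2-fold, where 5.99% of all names were higher and 8.44% lower. No parent passed 2-fold either by the probe that stands for it. The median of the 20 was -0.04 and that of the parents -0.27.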
